A study of Mus musculus with 3 samples.

Results

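Malat1-rich and Malat1-poor cell barcodes were compared within 3 mouse medulloblastomas, to read whether RNA kept in the nucleus moves with Malat1 and RNA of the cytoplasm against it. Among 20959 barcodes, 1981 held at least 200 counts and at most 10% of counts from mitochondrially encoded genes. Members were chosen by their measured Malat1 share: a barcode was placed in the Malat1-rich set when Malat1 made up at least 8% of its non-mitochondrial counts, and in the Malat1-poor set when Malat1 made up at most 3%. This gave 785 members, 338 Malat1-rich and 447 Malat1-poor, and left 1196 barcodes in the middle. Malat1 chose the sets, so its own levels are a description. It was taken out of every table before the other genes were compared.

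All 3 tumours belonged to 1 group and carried the same alleles and treatment. Each came from a G-Smo mouse (hGFAP-Cre/SmoM2, C57BL/6), in which the human GFAP promoter drives Cre in neural stem cells and their descendants and so switches on SmoM2, a constantly active form of the Hedgehog receptor component Smoothened, in more cells than the granule neuron progenitors the tumour grows from. The mice received 5 daily intraperitoneal injections of 25 mg/kg palbociclib, which blocks the kinases CDK4 and CDK6 of the cell cycle, in the nanoparticle formulation POx-palbo, from postnatal day 10, and tumours were taken on postnatal day 16. Untreated tumours are not analysed here, so every value is a comparison of barcodes inside treated tumours. RNA was counted by Drop-seq, in which beads with oligo-dT primers catch polyadenylated RNA of dissociated single cells in droplets.

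Malat1 is a long noncoding RNA of nuclear speckles, the compartments that store splicing factors, and it is hardly translated or exported. Its 3′ end is not a poly(A) tail but a triple helix left after cleavage, so oligo-dT is thought to catch it mainly at stretches of A inside the transcript. Meg3 is an imprinted, chromatin-associated long noncoding RNA of neurons. Preparations of nuclei are therefore known to be rich in Malat1, while ribosomal protein mRNAs are among the best known messengers of the cytoplasm.

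A stretch near the 3′ end of each of both noncoding RNAs is shown, from the GENCODE M21 transcript models of the GRCm38 assembly. The Malat1 stretch is bases 6638 to 6697 of the 6983 bases of the transcript, with its only run of 8 or more A in capitals. That run is 12 bases long, at bases 6674 to 6685, and 298 bases follow it in the model. The model need not end where the cleaved RNA ends, and the run may be part of the triple helix. Whether oligo-dT primers caught Malat1 at this run was not tested. The Meg3 stretch is the last 60 bases of its longest model, bases 14489 to 14548, with its AATAAA polyadenylation signal in capitals at bases 14525 to 14530. That model holds 7 runs of 8 or more A.
Malat1: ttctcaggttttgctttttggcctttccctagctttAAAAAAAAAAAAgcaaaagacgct
Meg3: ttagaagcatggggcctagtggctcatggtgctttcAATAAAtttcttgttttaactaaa

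The 3 tumours did not share the same spread of Malat1. Tumour 2 was the odd library: of its 93 barcodes within the limits, 56 were Malat1-rich and 3 Malat1-poor. Tumour 1 had 138 rich and 225 poor barcodes of 963, and tumour 3 had 144 and 219 of 925. The Malat1-rich set thus held 14.3% of the barcodes of tumour 1 (exact 95% binomial interval 12.2 to 16.7), 60.2% of tumour 2 (49.5 to 70.2) and 15.6% of tumour 3 (13.3 to 18.1). The Malat1-poor set held 23.4%, 3.23% (0.670 to 9.14) and 23.7%. These intervals cover counting error only. Library totals were 248617 counts in tumour 2 and 1150463 and 1324350 in tumours 1 and 3, with medians of 84 to 105 counts per deposited barcode. Between 3 and 8 barcode sequences were shared by each pair of libraries, and 0 of those were within the limits. The median Malat1 share was 4.75% in tumours 1 and 3 and 9.22% in tumour 2.

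The share formed a continuous range with no gap at either limit. It ran from 0 to 19.1% in tumour 1, from 0.794% to 26.9% in tumour 2 and from 0 to 26.8% in tumour 3. Its variance among barcodes was 6.29, 9.72 and 5.44 times what binomial counting of 1 common share would give, a description of the measure that chose the sets. Pooled over a set, Malat1 made up 10.2%, 12.8% and 10.01% of non-mitochondrial counts in the rich barcodes of tumours 1, 2 and 3 and 1.96%, 1.89% and 2.09% in the poor ones. The sets are ranges of this share and not cell types. Just inside and outside the lower limit lay 108 and 137 barcodes of tumour 1 (shares of 2% to 3% and of over 3% to 4%) and 127 and 126 of tumour 3. Just outside and inside the upper limit (7% to under 8%, 8% to 9%) lay 65 and 45 barcodes of tumour 1 and 70 and 57 of tumour 3. Meg3 had 1 and 1 counts in the bands at the lower limit and 6 and 3 in those at the upper limit in tumour 1, and 4, 1, 2 and 5 in tumour 3.

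**Figure D1:**
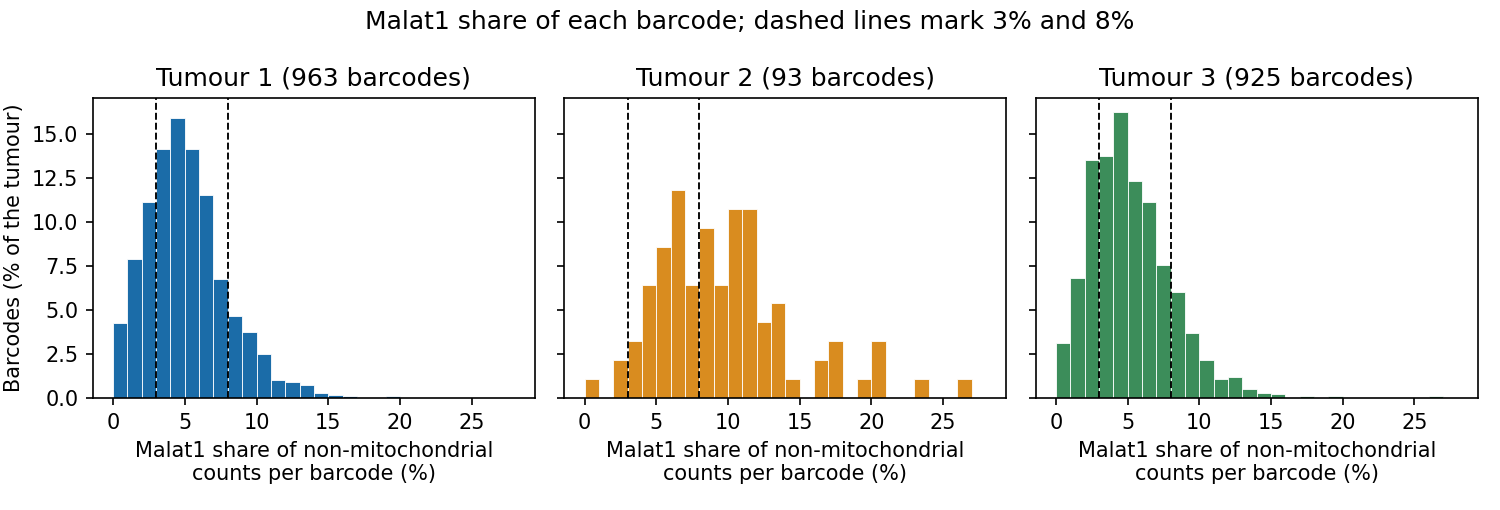
Malat1 share of non-mitochondrial counts per barcode (x axis, percent) against the percent of a tumour's barcodes in each bin of 1 percentage point (y axis), for the 963, 93 and 925 barcodes of tumours 1, 2 and 3 within the limits on counts and mitochondrial share. Dashed lines mark 3% and 8%; tumours 1 and 3 peak between them, and 60.2% of the barcodes of tumour 2 lie at or above the upper one.

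Malat1 was lower in barcodes with few counts than in those just past the limit. Among barcodes of at most 10% mitochondrial counts, Malat1 made up 1.75%, 6.96% and 3.00% of non-mitochondrial counts at 50 to 99 counts in tumours 1, 2 and 3. At 200 counts and just under 400 it made up 4.92%, 9.84% and 5.13%. At 50 to 99 counts, 79.3%, 18.4% and 55.7% of barcodes would meet the poor limit and 0.851%, 31.1% and 2.75% the rich one. Most shallow barcodes of tumours 1 and 3 were thus poor in Malat1, while in tumour 2 more of them were rich than poor. RNA freed from broken cells can fill such barcodes, and its part in the Malat1-poor set was not tested, but the levels of these shallow barcodes are given beside the results.

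Inside the 2 sets the depth differed little. The Malat1-rich barcodes had a median of 305, 207 and 277 non-mitochondrial counts other than Malat1 in tumours 1, 2 and 3, and the Malat1-poor ones 271, 240 and 245. The log2 difference of the medians, rich minus poor, was 0.17, -0.21 and 0.18 (mean 0.04 ± 0.22, SD, n = 3; exact two-sided permutation p = 1 over tumours, smallest possible 0.25). Rich barcodes were deeper in tumours 1 and 3 and shallower in tumour 2. Thinned to 150 counts, barcodes held a median of 138, 133 and 137 genes in the rich set and 137, 124 and 135 in the poor set. The sums compared held 52898, 13211 and 45710 counts in the rich sets and 79139, 726 and 66014 in the poor sets, so that of tumour 2 is too small to carry most genes. Each level below is a gene's counts per 10000 such counts.

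In the test over all 3 tumours, 1 of 1033 genes was called at an adjusted p under 0.05 (0.0968%), and it was lower in Malat1-rich barcodes: Ctsd, which codes for the lysosomal protease cathepsin D. None was called higher in edgeR's quasi-likelihood test, while at an unadjusted p under 0.05, 20 genes were higher (1.94%) and 10 lower (0.968%). DESeq2 called 2 genes higher, Meg3 and A330076H08Rik, and 1 lower. Limma-voom called none higher and 1 lower. Tumour 2 entered this test with 726 poor counts. Without it, 18 of 1511 genes were called (1.19%), 10 higher (0.662%) and 8 lower (0.529%), from 2 tumours and so with 1 residual degree of freedom per gene. The low-count filter keeps a gene that reaches a level of 2.03 in 3 sums (1.68 in 2 sums for tumours 1 and 3), so a gene can enter through 1 set alone. In tumours 1 and 3, 79 genes entered only through the rich and 49 only through the poor set. Of the 18 called, Meg3 entered only through the rich and C1qc only through the poor sets. With a filter on the mean level instead, 0 of 1181 genes were called over all tumours (23 at an unadjusted p under 0.05) and 18 of 1319 in tumours 1 and 3, 17 of them among the first 18. At an unadjusted p under 0.05, 5.1% of the 1511 genes were higher and 5.43% lower. DESeq2 called 1 of these 1511 genes, Ctsd, and limma-voom 30, of which 17 were among the 18. Where 2 fold changes of a gene stand below without a label, the first is for all 3 tumours and the second for tumours 1 and 3 alone. A single fold change with a standard error and no label is for tumours 1 and 3. The word "called" refers to edgeR unless another tool is named.

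Among noncoding RNAs, Meg3 and A330076H08Rik, a long noncoding RNA gene in RefSeq that was on no list, were called higher in the Malat1-rich barcodes of tumours 1 and 3. Meg3 had levels of 3.78, 3.79 and 2.84 in the Malat1-rich barcodes of tumours 1, 2 and 3 and of 0.379, 0 and 0.757 in the poor ones, from 20, 5 and 13 counts against 3, 0 and 5. In tumours 1 and 3 both rich levels lay above both poor levels, and the middle barcodes lay between, at 1.43 and 1.42. The 0 of tumour 2 comes from 726 counts and carries no information on so low a level. The log2 change of Meg3 was 2.58 ± 0.71 (SE; edgeR adjusted p = 0.104) over all tumours and 2.55 ± 0.63 (adjusted p = 0.00929) in tumours 1 and 3, where it was called. Meg3 entered the test only through the rich sets, where it was high. With the filter on the mean level its change in tumours 1 and 3 was 2.54 (edgeR adjusted p = 0.0121). Its counts were spread over 12, 3 and 7 rich barcodes with at most 3, 2 and 4 in any of them. With barcodes called as other cell types left out, Meg3 stood at 3.74 against 0.433 in tumour 1 and 2.80 against 0.845 in tumour 3.

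A330076H08Rik behaved alike, with levels of 6.81, 6.06 and 4.59 in rich barcodes and 1.77, 0 and 1.51 in poor ones, the 0 again from 726 counts. Its middle levels were 3.68, 0 and 3.48. The log2 change was 1.84 ± 0.51 (SE; edgeR adjusted p = 0.104) over all tumours and 1.80 ± 0.40 (adjusted p = 0.00285) in tumours 1 and 3. Over all tumours it too entered only through the rich sets. In shallow barcodes of 50 to 99 counts it stood at 0.749, 1.56 and 0.969, and Meg3 at 0.870, 2.68 and 1.30. In tumours 1 and 3 both RNAs were thus lower in shallow barcodes than in middle and rich ones. Meg3 lay above its Malat1-poor levels there and A330076H08Rik below them.

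The list of nuclear-retained long noncoding RNAs had 19 members with a count, and 4 could be tested: Meg3, Miat, Xist and Tsix. Meg3 was the 1 of them that edgeR called, in tumours 1 and 3, against 0.662% of all genes called higher there. Xist, the RNA that coats the inactive X chromosome in female cells, had levels of 34.8, 32.5 and 39.4 in rich barcodes and 31.7, 0 and 24.4 in poor ones, and its change of 0.41 ± 0.12 in tumours 1 and 3 missed the threshold (edgeR adjusted p = 0.0664). Tsix is its antisense partner and reads of both cannot be told apart where strand is not used in counting. Its change there was 0.69 ± 0.27 (edgeR adjusted p = 0.236). Miat, a neuronal noncoding RNA, changed by 0.09 ± 0.40 (edgeR adjusted p = 0.969). Of the snoRNA host RNAs, whose spliced forms reach the cytoplasm, Gas5 (-0.47 ± 0.27, edgeR adjusted p = 0.556) and Snhg5 (-1.20 ± 0.50, edgeR adjusted p = 0.301) were the 2 tested, and neither was called.

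**Figure D2:**
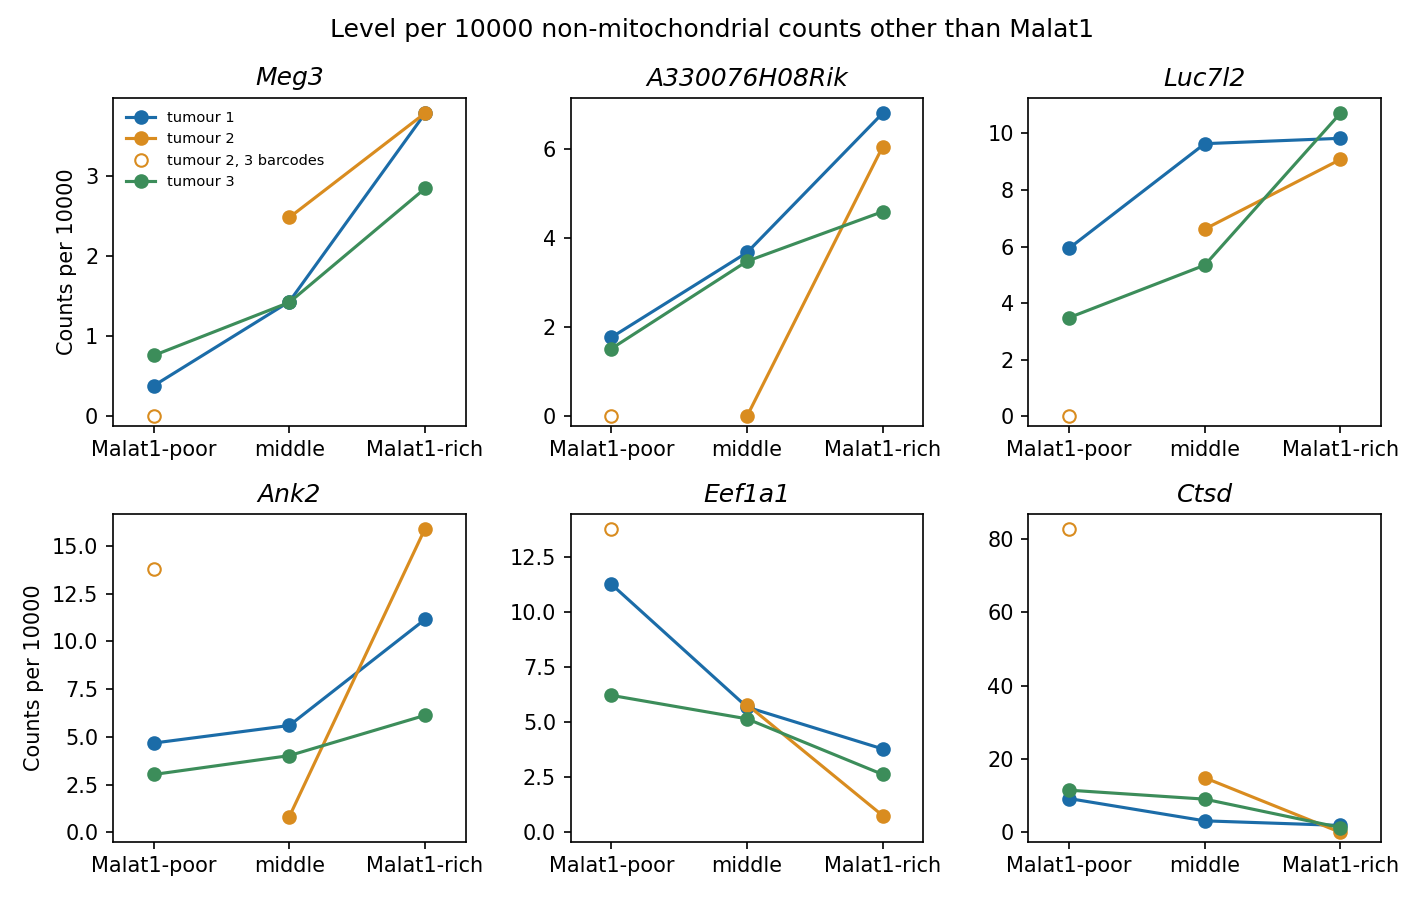
Counts per 10000 non-mitochondrial counts other than Malat1 (y axis) of 6 genes in the Malat1-poor, middle and Malat1-rich barcodes (x axis) of each tumour, with 1 line per tumour and an open circle for the 3 poor barcodes of tumour 2. Meg3, A330076H08Rik, Luc7l2 and Ank2 stand higher in the rich than in the poor set of tumours 1 and 3, and Eef1a1 and Ctsd lower.

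Genes of nuclear speckles and splicing, the compartment Malat1 belongs to, showed small differences. Luc7l2, a factor of the U1 snRNP that binds the start of introns, was called higher in tumours 1 and 3. Its level was 9.83, 9.08 and 10.7 in rich and 5.94, 0 and 3.48 in poor barcodes, the 0 from 726 counts. The log2 change was 1.20 ± 0.47 (SE; edgeR adjusted p = 0.926) over all tumours and 1.12 ± 0.28 (adjusted p = 0.00929) in tumours 1 and 3. Luc7l2 was the 1 call among 52 members of the splicing and speckle list tested in those tumours, against 0.662% of all genes called higher. At an unadjusted p under 0.05, 4 were higher and 1 lower, against 5.1% and 5.43% of all genes. The median log2 change was 0.11, against 0.00 over all genes tested, and 35 of the 52 were above 0, against 50.6% of all genes. Of the 52, 1 entered only through the rich and 1 only through the poor sets. Over all tumours 34 of 46 were above 0, against 55.2% of all genes, with a median of 0.23 and no call. Of the 46, 1 entered only through the rich sets. Srrm2, the large scaffold protein of speckles, changed by 0.36 ± 0.14 in tumours 1 and 3 (edgeR adjusted p = 0.225). Hnrnpu, an RNA-binding protein of the nuclear scaffold, changed by -0.25 ± 0.15 (edgeR adjusted p = 0.563).

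D4Wsu53e and Paxbp1, which are on no list, were also called higher in tumours 1 and 3. D4Wsu53e, the older symbol of the arginine- and serine-rich protein gene Rsrp1, had levels of 12.3, 15.1 and 8.97 in rich and 5.69, 13.8 and 3.94 in poor barcodes. It was higher by 1.15 ± 0.28 (SE, log2; edgeR adjusted p = 0.0072) in tumours 1 and 3 and by 1.20 ± 0.47 (adjusted p = 0.926, not called) over all tumours. Paxbp1, which codes for a partner of PAX transcription factors, stood at 7.94, 2.27 and 6.13 against 2.53, 13.8 and 3.18. It was higher by 1.32 ± 0.35 (edgeR adjusted p = 0.0154) in tumours 1 and 3 and changed by 1.25 ± 0.49 (adjusted p = 0.926) over all tumours, while in tumour 2 its poor level rested on 726 counts. Chromatin regulators, the other nuclear list, had 24 of 37 members above 0 in tumours 1 and 3, against 50.6% of all genes, with a median of 0.13. Of the 37, 1 entered only through the rich sets. None was called by edgeR, DESeq2 or limma-voom. At an unadjusted p under 0.05, 2 were higher and 1 lower, against 5.1% and 5.43% of all genes. Over all tumours 24 of 32 were above 0, against 55.2% of all genes, with a median of 0.25. The chromatin remodeller Atrx changed by 0.34 ± 0.16 in tumours 1 and 3 (edgeR adjusted p = 0.432) and Chd4, of the NuRD complex, by -0.13 ± 0.18 (edgeR adjusted p = 0.902).

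Neuronal genes with long introns leaned to the Malat1-rich side. Of 23 members of the list tested in tumours 1 and 3, 20 were above 0, against 50.6% of all genes, with a median log2 change of 0.39. At an unadjusted p under 0.05, 8 of the 23 were higher, against 5.1% of all genes. Of the 23, 2 were called higher, against 0.662% of all genes, and 1 entered only through the rich sets. Over all tumours 21 of 22 were above 0, against 55.2% of all genes, with a median of 0.47. Ank2, which links membrane proteins to the cytoskeleton of the axon, had levels of 11.2, 15.9 and 6.13 in rich and 4.68, 13.8 and 3.03 in poor barcodes, with a log2 change of 1.23 ± 0.48 (SE; edgeR adjusted p = 0.926) over all tumours and 1.17 ± 0.31 (adjusted p = 0.0154) in tumours 1 and 3. Gria2, an AMPA glutamate receptor subunit, had levels of 15.9, 9.84 and 13.6 against 9.60, 27.5 and 6.82. Its change was 0.83 ± 0.50 (edgeR adjusted p = 0.987) and 0.85 ± 0.23 (adjusted p = 0.0188). Both were higher in the rich set of tumours 1 and 3. Gria2 was not in tumour 2, where the poor levels rest on 1 count of Ank2 and 2 of Gria2. The transcription factor genes Nfib (0.00 ± 0.11, edgeR adjusted p = 0.999) and Nfia (-0.25 ± 0.13, edgeR adjusted p = 0.51), the most abundant members, did not follow.

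Granule neuron markers leaned to the Malat1-rich side as well. Their summed level was 86.2, 94.6 and 98.4 in rich and 62.8, 27.5 and 65.6 in poor barcodes. In tumours 1 and 3, 11 of 13 tested were above 0, against 50.6% of all genes, with a median log2 change of 0.43. Of the 13, 2 were called higher, against 0.662% of all genes. The 2 called were Meg3, which is on this list too and entered only through the rich sets, and Neurod1, a transcription factor of granule neuron differentiation. Neurod1 stood at 20.98, 22.7 and 33.0 against 14.9, 0 and 20.3, a change of 0.86 ± 0.63 (SE; edgeR adjusted p = 0.987) over all tumours and 0.60 ± 0.16 (adjusted p = 0.0143) in tumours 1 and 3. Barcodes called granule neuron by at least 3 counts of at least 2 list genes were 50 of 138 rich and 73 of 225 poor ones in tumour 1 and 61 of 144 and 65 of 219 in tumour 3. Of the 20 markers, 3 had no count in each of these 4 sets. Markers of granule neuron progenitors, the cells this tumour grows from, were present in both sets, at 58.8, 71.9 and 65.0 in rich and 64.7, 41.3 and 71.3 in poor barcodes. The summed granule neuron level therefore differed along with Malat1, and its part in the results for neuronal genes and Meg3 was not tested.

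Among translation factor genes, Eef1a1 was called lower in tumours 1 and 3. It codes for elongation factor 1A, which brings tRNAs to the ribosome. Its level was 3.78, 0.757 and 2.62 in rich barcodes, 5.68, 5.79 and 5.15 in the middle and 11.2, 13.8 and 6.21 in poor ones, in falling order in tumours 1 and 3. In tumour 2 the rich and poor levels are 1 count each. The log2 change was -1.45 ± 0.51 (SE; edgeR adjusted p = 0.829) over all tumours and -1.43 ± 0.33 (adjusted p = 0.00375) in tumours 1 and 3, where Eef1a1 was called. With barcodes of other cell types left out it stood at 3.51 against 11.7 in tumour 1 and 2.56 against 6.08 in tumour 3. In shallow barcodes of 50 to 99 counts its level was 14.1, 2.90 and 9.83. It was thus high in shallow barcodes of tumours 1 and 3, on the side of the poor set.

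Other genes of translation leaned the same way with no further call. Of 20 translation factor genes tested in tumours 1 and 3, 17 were below 0, against 49.4% of all genes, with a median log2 change of -0.46. Of the 20, 1 entered only through the poor sets. At an unadjusted p under 0.05, 8 were lower, against 5.43% of all genes. Pabpc1, the poly(A)-binding protein of the cytoplasm, changed by -0.46 ± 0.19 (SE; edgeR adjusted p = 0.276) and Eif5b, which joins the ribosomal subunits, by 0.21 ± 0.24 (edgeR adjusted p = 0.86). Summed over the list, the level was 102, 88.6 and 109 in rich and 138, 165 and 144 in poor barcodes, so it was lower in the rich set within each tumour.

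No ribosomal protein gene was called by edgeR, yet most were lower in the Malat1-rich sets. In tumours 1 and 3, 44 of 51 had a change below 0, against 49.4% of all genes tested, with a median log2 change of -0.43. Of the 51, 2 entered only through the poor sets, so their direction was favoured by the filter. At an unadjusted p under 0.05, 7 of the 51 were lower and none higher, against 5.43% and 5.1% of all genes. DESeq2 called none and limma-voom 1. Over all tumours 36 of 39 were below 0, against 44.8% of all genes, with a median of -0.36. Of the 39, 1 entered only through the poor sets. DESeq2 and limma-voom called none of the 39, and 3 were lower at an unadjusted p under 0.05, against 0.968% of all genes. The summed level was 177, 154 and 237 in rich and 211, 455 and 347 in poor barcodes, so rich barcodes were lower within every tumour. Rpl41 stood at 8.32, 7.57 and 10.9 against 7.08, 0 and 18.0, and Rps19 at 8.13, 6.06 and 9.63 against 8.47, 0 and 16.5, which shows how thin the single genes are. In shallow barcodes of 50 to 99 counts the summed level was 562, 288 and 558. Near-identical pseudogenes can share reads with ribosomal protein genes, and how the counting treated them is not given in the sources used here.

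Outside translation, Actb and Slc25a4 were called lower in tumours 1 and 3. Actb, the cytoskeletal actin, had levels of 33.8 and 32.2 in the rich barcodes of tumours 1 and 3 and 49.0 and 49.4 in the poor ones. Its log2 change was -0.18 ± 0.75 (SE; edgeR adjusted p = 0.987) over all tumours and -0.57 ± 0.11 (adjusted p = 6.16e-05) in tumours 1 and 3. It was the 1 call among 36 abundant housekeeping mRNAs there, against 0.529% of all genes called lower. Of these, 22 were below 0, against 49.4% of all genes, with a median of -0.17. Hsp90ab1, a cytosolic chaperone, changed by -0.07 ± 0.09 (edgeR adjusted p = 0.882). Slc25a4, the carrier that exchanges ADP and ATP across the inner mitochondrial membrane, was on no list and changed by -0.72 ± 0.48 (edgeR adjusted p = 0.987) over all tumours and by -1.005 ± 0.26 (adjusted p = 0.0112) in tumours 1 and 3, from levels of 12.3 and 12.7 in poor to 6.05 and 6.34 in rich barcodes. In tumour 2, the 726 poor counts held none of Actb or Slc25a4.

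Secretory mRNAs, which are translated at the endoplasmic reticulum next to the nucleus, did not lean to either side. Of 21 tested in tumours 1 and 3, 12 were above 0, against 50.6% of all genes, with a median log2 change of 0.12. Of the 21, 1 entered only through the rich sets. None was called by edgeR, DESeq2 or limma-voom, and none had an unadjusted p under 0.05. Sfrp1, a secreted Wnt modulator, changed by -0.33 ± 0.17 (SE; edgeR adjusted p = 0.486) and the chaperone Hsp90b1 by -0.22 ± 0.19 (edgeR adjusted p = 0.773). Nuclear-encoded subunits of oxidative phosphorylation had 16 of 42 above 0 in tumours 1 and 3, against 50.6% of all genes, with a median of -0.17. Of the 42, 2 entered only through the rich and 4 only through the poor sets. The 3 tools called none, and 1 was higher and 1 lower at an unadjusted p under 0.05, against 5.1% and 5.43% of all genes. Cox6a1 changed by -0.07 ± 0.23 (edgeR adjusted p = 0.954) and Atp5b by -0.31 ± 0.30 (edgeR adjusted p = 0.814).

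**Figure D3:**
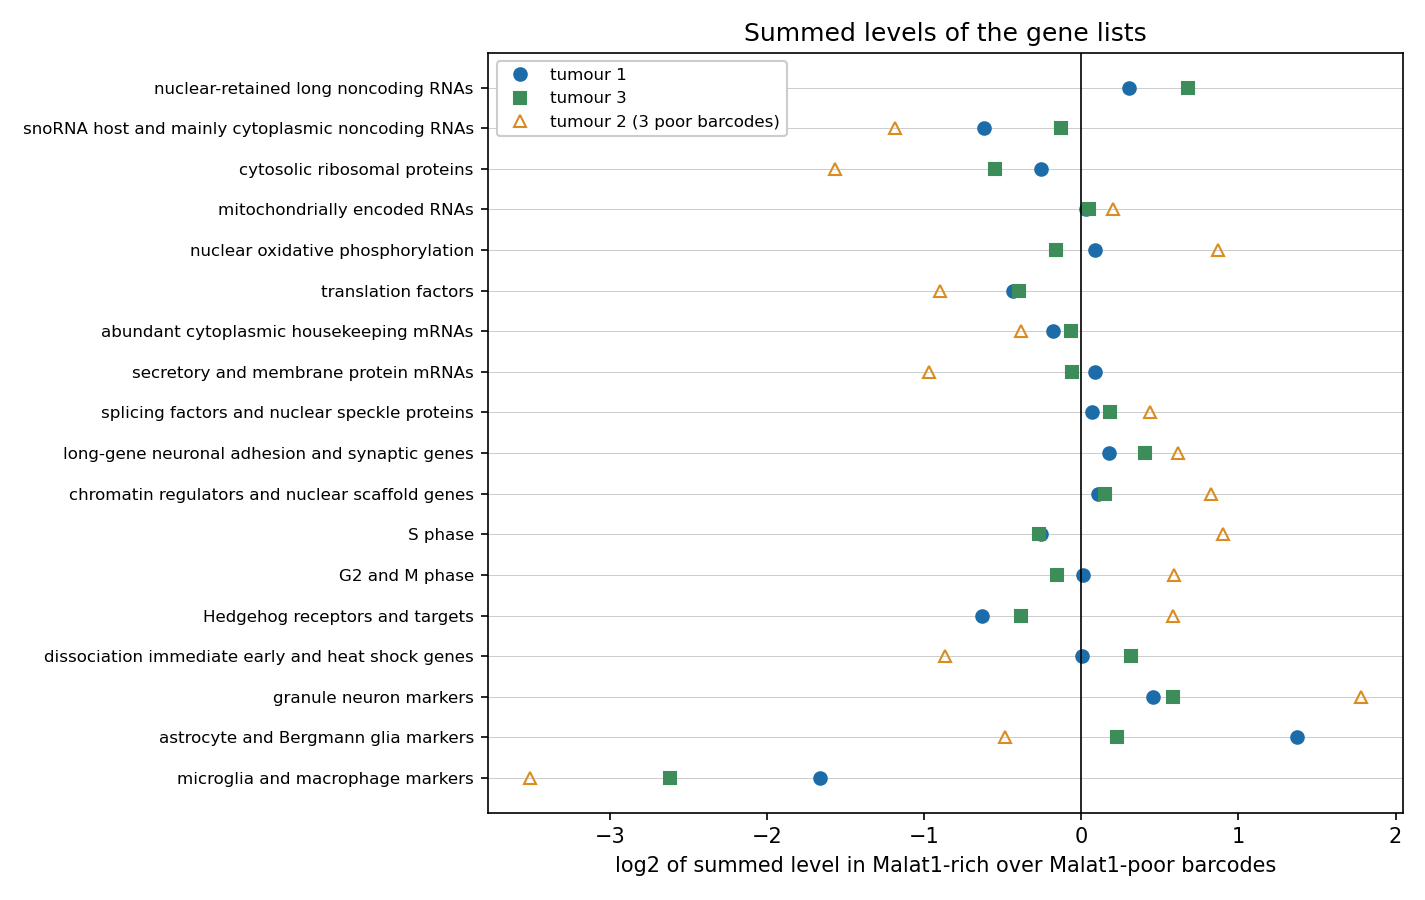
Log2 ratio of the summed level of each gene list in Malat1-rich over Malat1-poor barcodes (x axis), with 1 symbol per tumour and the lists on the y axis. Tumour 2, with 3 poor barcodes, is drawn open and is missing for nuclear-retained noncoding RNAs, for which its poor barcodes had no count; ribosomal proteins and translation factors lie left of 0 and long neuronal genes right of 0 in all 3 tumours.

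Mitochondrial RNA, which lies outside the nucleus, did not stand lower in the Malat1-rich barcodes. Its share of counts other than Malat1 was 4.94%, 7.35% and 5.40% in rich and 4.83%, 6.44% and 5.22% in poor barcodes. The difference was 0.10, 0.91 and 0.18 percentage points (mean 0.40 ± 0.44, SD, n = 3), higher in 3 of 3 tumours, with an exact two-sided permutation p of 0.25, the smallest that 3 tumours allow. It was 0.14 without tumour 2, 1.05 at 500 counts or more (2 tumours) and 1.16 at shares of 6% against 4%. The limit of 10% on this share trims the comparison, and without it the direction turned. The rich barcodes then held 5.95%, 12.3% and 6.52% and the poor ones 6.43%, 19.8% and 7.67%, a mean difference of -3.03 (exact permutation p = 0.25), lower in 3 of 3 tumours. Of 9 single mitochondrial RNAs tested in tumours 1 and 3, 7 were above 0, against 50.6% of all genes. At an unadjusted p under 0.05, 2 were higher and 1 lower, against 5.1% and 5.43% of all genes. Over all tumours 9 of 9 were above 0, against 55.2% of all genes, and none was called. In tumours 1 and 3, 1 of the 9 was called, against 0.662% of all genes called higher. This was mt-Cytb, the cytochrome b subunit of complex III, with levels of 60.9, 61.3 and 64.5 in rich and 48.0, 13.8 and 48.9 in poor barcodes. Its log2 change was 0.94 ± 0.79 (SE; edgeR adjusted p = 0.987) over all tumours and 0.37 ± 0.09 (adjusted p = 0.00619) in tumours 1 and 3. The ribosomal RNA mt-Rnr2, the most abundant member, changed by -0.07 ± 0.03 (edgeR adjusted p = 0.393). In shallow barcodes mt-Cytb stood at 9.49, 24.1 and 10.7.

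A further group of genes called lower, Ctsd, Apoe and Ctsb, is known for high levels in microglia. So is C1qc, whose call came after it entered the test only through the poor sets. Ctsd had levels of 1.89, 0 and 1.31 in rich barcodes and 9.22, 82.6 and 11.5 in poor ones, with middle levels of 3.15, 14.9 and 9.07. Its log2 change was -2.92 ± 0.56 (SE; edgeR adjusted p = 0.000259) over all tumours and -2.65 ± 0.37 (adjusted p = 5.87e-10) in tumours 1 and 3. Over all tumours it entered the test only through the poor sets, and with the filter on the mean level it was not called there (edgeR adjusted p = 0.11). Few barcodes carried these counts. Of the 73, 6 and 76 poor counts, 51, 6 and 57 were in barcodes called microglia. The barcode with the most Ctsd counts alone held 38, 6 and 25. With barcodes of other cell types left out, Ctsd stood at 1.40 against 2.74 in tumour 1 and 1.17 against 3.21 in tumour 3, and it was no longer called (log2 change -1.18, edgeR adjusted p = 0.431).

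Apoe, a lipid carrier made by microglia and astrocytes, and Ctsb, the lysosomal protease cathepsin B, were called lower in tumours 1 and 3. Apoe stood at 12.5, 2.27 and 3.72 in rich and 18.7, 82.6 and 31.2 in poor barcodes, a log2 change of -1.83 ± 0.60 (SE; edgeR adjusted p = 0.637) over all tumours and -1.57 ± 0.20 (adjusted p = 5.86e-12) in tumours 1 and 3. At shares of 6% against 4% Apoe was instead called higher in these tumours, by 0.78 (edgeR adjusted p = 8.68e-09). Without barcodes of other cell types its levels were 5.61 against 6.496 and 3.96 against 7.94 in these tumours. Ctsb stood at 5.29, 1.51 and 2.62 against 10.4, 55.1 and 8.18 and changed by -1.36 ± 0.49 (edgeR adjusted p = 0.83) over all tumours and -1.21 ± 0.30 (adjusted p = 0.00929) in tumours 1 and 3. Without those barcodes it stood at 3.51 against 2.89 and 2.80 against 2.37, now higher in the rich sets. C1qc, a chain of complement C1q made by microglia, had 2, 1 and 0 rich and 16, 1 and 17 poor counts and was called in tumours 1 and 3 (edgeR adjusted p = 0.0469). It entered there only through the poor sets, where it was high, and did not pass the filter on the mean level.

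The microglia and macrophage list as a whole stood at 4.92, 6.06 and 3.28 in rich and 15.5, 68.9 and 20.1 in poor barcodes, with 7, 10 and 7 of its 15 markers at 0 in the rich sets and 1, 12 and 1 in the poor sets. The 5 members tested in tumours 1 and 3, C1qc among them, all entered only through the poor sets. Their changes are therefore not read as a result, although C1qc is 1 of the 18 calls. Barcodes called microglia were 2, 0 and 1 of the rich and 3, 1 and 6 of the poor sets. In shallow barcodes the list stood at 9.71, 6.48 and 7.99. Removing every barcode with any count of the list left 10 calls in tumours 1 and 3, with 8 of the 18 among them: Meg3, A330076H08Rik, Luc7l2, D4Wsu53e, Paxbp1, Eef1a1, Actb and Ccnd2. Removing barcodes called as any other cell type left none (136 at an unadjusted p under 0.05). Luc7l2 then changed by 1.08 (edgeR adjusted p = 0.271), A330076H08Rik by 1.99 (adjusted p = 0.202), Meg3 by 2.36 (adjusted p = 0.324) and Eef1a1 by -1.51 (adjusted p = 0.202).

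An astrocyte gene was higher in the Malat1-rich barcodes, mainly in tumour 1. Slc1a3, the glutamate transporter of astrocytes and Bergmann glia, had levels of 9.07, 1.51 and 1.31 in rich and 2.27, 0 and 0.909 in poor barcodes. These came from 48, 2 and 6 counts against 18, 0 and 6. It was called in tumours 1 and 3 (log2 change 1.68 ± 0.42, SE; edgeR adjusted p = 0.00929) and was below the filter over all tumours. Of its 48 rich counts in tumour 1, 37 were in barcodes called astrocyte, and without barcodes of other cell types it stood at 2.34 against 1.44 there. The astrocyte and Bergmann glia list stood at 40.8, 9.84 and 13.1 in rich and 15.8, 13.8 and 11.2 in poor barcodes, so the difference was large in tumour 1 alone. Barcodes called astrocyte were 14, 0 and 4 of the rich and 9, 0 and 1 of the poor sets. The list had 3, 11 and 9 of its 15 markers at 0 in the rich sets and 5, 14 and 6 in the poor sets. Oligodendrocyte, erythroid and interneuron or Purkinje markers had 1 member each tested in tumours 1 and 3, and none was called by the 3 tools or had an unadjusted p under 0.05. Endothelial, mural and neutrophil markers were too rare to be tested.

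No gene of the S phase or the G2 and M phase list was called. Of S phase genes 13 were tested in tumours 1 and 3 and of G2 and M phase genes 30, and edgeR, DESeq2 and limma-voom called none of them. At an unadjusted p under 0.05 none of the S phase genes and 4 of the G2 and M phase genes were lower, against 5.43% of all genes. Their medians were -0.29 and 0.03 on the log2 scale. Of the S phase genes 10 of 13 were below 0, against 49.4% of all genes. The summed level of the whole list of 45 was 57.5, 51.5 and 59.7 in rich and 68.7, 27.5 and 71.8 in poor barcodes, lower in the rich set of tumours 1 and 3. Mki67, a marker of cycling cells, stood at 9.83, 15.9 and 12.03 in rich and 11.0, 0 and 11.5 in poor barcodes. Among Hedgehog receptors and targets 1 of 6 was called, Ccnd2, the cyclin D2 that pairs with CDK4 and CDK6, with levels of 10.96, 24.98 and 21 against 24.8, 0 and 25.3. Its log2 change was -0.24 ± 0.62 (SE; edgeR adjusted p = 0.987) over all tumours and -0.69 ± 0.17 (adjusted p = 0.00696) in tumours 1 and 3. In those tumours 5 of the 6 were below 0 and 3 were lower at an unadjusted p under 0.05, with a median of -0.53. Of all genes, 49.4% were below 0, 5.43% were lower at that p and 0.529% were called lower. Of the 6, 1 entered only through the poor sets, so its direction was favoured by the filter. The summed level of the Hedgehog list was 45.0 against 69.8 in tumour 1 and 57.8 against 75.3 in tumour 3, but 62.1 against 41.3 in tumour 2. Immediate early and heat shock genes, a sign of dissociation stress, had no call by the 3 tools among 8 tested, with a median of 0.07. Of the 8, 1 was higher at an unadjusted p under 0.05, against 5.1% of all genes. Jun changed by 0.39 ± 0.21 (edgeR adjusted p = 0.518) and Egr1 by 0.13 ± 0.34 (edgeR adjusted p = 0.943).

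Gene length ran along with the change. When the genes with a length in GENCODE M21 (1023 of 1024 non-mitochondrial genes tested over all tumours) were divided into 4 groups of near-equal size by genomic span, introns included, the median log2 change was -0.10, 0.01, 0.07 and 0.23 from the shortest to the longest group. The share of genes above 0 was 43.4%, 50.4%, 55.3% and 70.3%. In tumours 1 and 3 the medians were -0.17, -0.02, -0.01 and 0.18, over 1494 of 1502 genes. Longer genes thus lay on the Malat1-rich side in both fits. Across genes Spearman's rho was 0.22 for span and 0.24 for transcript length over all tumours, and 0.23 and 0.22 in tumours 1 and 3. Genes share the same sums and are not independent replicates, so these values carry no test. The quartiles within each group of genes reached well past 0 on both sides.

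**Figure D4:**
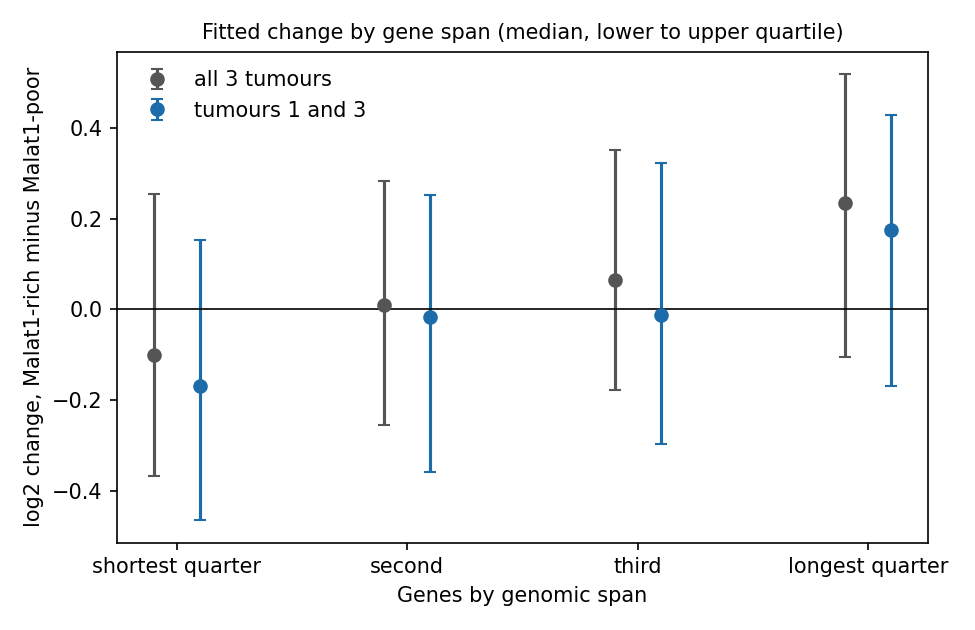
Median log2 change, Malat1-rich minus Malat1-poor, of the genes in each of 4 groups of rising genomic span on the x axis (y axis, with bars from the lower to the upper quartile of genes), for all 3 tumours and for tumours 1 and 3. The medians go from -0.10 to 0.23 over all tumours and from -0.17 to 0.18 in tumours 1 and 3, and every bar crosses 0.

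The limit of 200 counts mattered more to the number of calls than any other choice tried. With barcodes of at least 100 counts, 103 of 1469 genes were called over all tumours (7.01%), 55 higher (3.74%) and 48 lower (3.27%), and 361 of 3808 in tumours 1 and 3 (9.48%), 148 higher (3.89%) and 213 lower (5.59%). Ribosomal protein genes, of which none was called at 200 counts, gave 43 of the 361 calls in tumours 1 and 3 at 100 counts. How many of these genes were tested at that limit, and their directions, are not given here. The 43 are therefore not set against the 9.48% of all genes or read as a result about ribosomal protein genes. At that limit the poor barcodes were also shallower, with a median of 116 non-mitochondrial counts other than Malat1 against 217 in the rich ones of tumour 1, and 116 against 171 in tumour 3. Depth and Malat1 share therefore cannot be told apart in the wider sets.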

How the data were processed

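Cells of 3 tumours were dissociated with papain and their mRNA was read by Drop-seq, per the labels' protocols. The authors deposited raw counts, of unique molecular identifiers for each of 19744 genes and each barcode, with no normalisation recorded. STAR, Cell Ranger and GRCh38 are named per the submitters' processing notes, without role or version. Gene symbols are mouse (18566, 94.03%, matched mouse names), so no deposited coordinate was used. The tumours are separate mice. Counts differed between tumours by more than counting noise (5.35 to 8.06 chi-square units per degree of freedom).

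Counts were summed per tumour and set. Genes kept by filterByExpr were tested with edgeR 4.0.16 (quasi-likelihood, ~ tumour + set, R 4.3.3) and adjusted by Benjamini-Hochberg. The library size was the non-mitochondrial count other than Malat1 with TMM factors, which were 0.748 to 0.809 except 3.46 for the poor set of tumour 2. Both sets of a tumour come from the same animal, which pairs them (correlation of deviations 0.24, 0.10 and 0.18 over 1033 genes). Alternatives used DESeq2 1.42.0 and limma 3.58.1. Depth and mitochondrial share were tested by exact permutation over tumours. Cell types were called from at least 3 counts of at least 2 markers. Scrublet (scanpy 1.11.5, expected rate 6%) called 3, 11 and 2 doublets, of which 0, 7 and 1 were Malat1-rich and none poor, and these stayed in. Barcodes were thinned to 150 counts with a fixed seed.

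The members and lists were chosen with earlier results of these data known. Genes named were called ones with at least 50 counts and 1 direction in all tumours compared, up to 12 each way, list examples, every tested noncoding list member, Malat1 and Meg3. This rule named Ctsd over all tumours, and was applied afterwards to tumours 1 and 3. Meg3 and C1qc, also called there, make up the 18.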

Additional observations from a re-analysis of the deposited data

How the results depend on the processing

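The number of called genes, 1 over all tumours, was 6 with library size alone, 3 with DESeq2, 2 without the tumour block (no replicate block), 2 at shares of 6% against 4%, 5 at 500 counts or more (tumours 1 and 3, as tumour 2 then had no poor barcode) and 103 at 100 counts or more. It was 0 without a low-count filter (195 at an unadjusted p under 0.05), with a filter on the mean level (23), between 200 counts and just under 400 (25), at a mitochondrial limit of 5% (26), without other cell types (26) and after thinning (23). Leaving out 1 tumour gave 0 to 18 calls. In tumours 1 and 3, against 18, it was 14 with library size alone, 1 with DESeq2, 30 with limma-voom, 361 at 100 counts or more, 5 at 500 or more, 18 between 200 and just under 400, 0 thinned (70 at an unadjusted p under 0.05), 0 without other cell types (136), 0 without a low-count filter (218), 18 with the filter on the mean level, 10 without barcodes with microglial counts, 19 without doublets, 16 at 10% against 2%, 19 at 6% against 4% and 18 at a limit of 5%. The settings for tumours 1 and 3 and the filter on the mean level were chosen after seeing the data. The mitochondrial difference became -3.03 without its limit, and ran from 0.14 to 1.16 under the others. The depth difference became -0.13 at 500 counts or more and ran from -0.021 to 0.17 when 1 tumour was left out. Meg3 stayed above 0 in all 27 alternatives that could test it (1.82 to 3.30). Actb turned to 0.26 with DESeq2, 0.23 with the filter on the mean level, 1.41 with limma-voom, and -0.57 to 0.91 when 1 tumour was left out, and Ccnd2 to 0.28, 0.22, 1.48 and -0.69 to 1.13, and 0.093 at 6% against 4%. Slc25a4 turned to 0.86 with limma-voom, and ran from -1.005 to 0.32 when 1 tumour was left out. In tumours 1 and 3 Apoe turned to 0.0815 without microglial counts (edgeR adjusted p = 0.946). At 6% against 4% it turned to 0.78 there and was called higher (edgeR adjusted p = 8.68e-09). Ctsb turned to 0.30 over all tumours and 0.28 in tumours 1 and 3 without other cell types, and to 0.49 without microglial counts. Neurod1 turned to -0.0014 at 500 counts or more. Apart from the subsets named, the cause was not tested. The 726 poor counts of tumour 2 limit every result over 3 tumours, and limma-voom moved the median change of all genes from 0.07 to 0.34.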

Other observations

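Barcodes over the mitochondrial limit entered no comparison. There were 97, 55 and 134 of them with at least 200 counts in tumours 1, 2 and 3, and mitochondrial RNA made up 13.9%, 20.97% and 16.1% of their counts. Their pooled Malat1 share was 4.68%, 8.66% and 5.06%, next to 5.31%, 9.20% and 5.37% in the barcodes within the limit. By the same shares 11, 30 and 24 of them would have been Malat1-rich and 37, 7 and 52 Malat1-poor.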
